A study of Mus musculus with 10 samples.

Results

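The genes described here encode the protein kinases of the mitogen-activated protein kinase (MAPK) cascade and the dual-specificity phosphatases (DUSP). They were taken by name from a table of mRNA molecules per cell in mouse splenic B cells: every gene whose symbol was Map2k, Map3k, Map4k, Mapk or Dusp followed by a number, with Map3k14 and Dusp1 set aside. The rule gave 43 of the 9690 genes in the table. Of these, 5 were MAP4K genes, 11 MAP3K, 7 MAP2K, 9 MAPK and 11 DUSP genes. A further 23 genes with such names, among them Dusp1, Dusp5, Dusp10, Map3k6 and Mapk13, were not in the table. Of the genes set aside, only Map3k14 was thus removed from it.

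MAP kinases are switched on by a relay in which a MAP4K can activate a MAP3K, the MAP3K phosphorylates a MAP2K, and the MAP2K phosphorylates the MAPK itself on a threonine and a tyrosine. The main branches end in the ERK, JNK and p38 kinases, and in B cells they carry signals from the antigen receptor, Toll-like receptors and CD40. Many DUSPs remove the activating phosphates again, each with its own preference among the branches, and several are themselves made in response to the signal they switch off.

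The study compared B cells with and without LSD1, the histone demethylase encoded by Kdm1a, in 2 populations sorted from the spleens of unstimulated female C57BL/6J mice. Marginal zone B cells (MZB), which sit at the edge of the white pulp and respond fast to blood-borne antigen, were sorted as B220+ cells that were CD23-, CD21hi and CD1d+. Follicular B cells (FoB), the recirculating majority, were sorted as B220+ cells that were CD23+, CD21mid and CD1d-. Both sorts also excluded cells positive for Thy1.1, F4/80, CD11b, CD93 or GL7. There were 2 LSD1 knockout and 3 wild-type MZB libraries, and 3 LSD1 knockout and 2 wild-type FoB libraries, each from 50000 cells. The labels do not name the Cre driver or the deleted exons, and whether each library is its own animal is not stated, so the tests see library-to-library differences that could be technical.

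The 10 libraries held 4161051 to 6711847 reads, recovered from the values, and a gene's median count was 184 to 319 reads. The deposited totals were higher in MZB than in FoB, at 74815.0 to 121070.6 against 43561.9 to 56437.7 mRNA molecules per cell, so values are given per cell, as deposited, and rescaled to the other genes of each library. A change after rescaling is therefore a change relative to the typical gene. Both knockout MZB totals, 105590.4 and 121070.6, were also above every wild-type MZB total (74815.0 to 99800.0). Groups without overlap per cell can thus reflect the totals, and the share of all genes without overlap was not computed on either scale. Per cell the median log2 change of all genes was 0.78 for wild-type MZB over FoB and 0.32 for knockout over wild-type MZB; rescaled, both were within 0.02 of zero. Kdm1a was lower after rescaling in both knockouts, by -0.69 on the log2 scale in MZB (limma adjusted p = 0.000464) and by -1.10 in FoB (limma adjusted p = 2.5e-05), with reads still present in every library. Per cell Kdm1a had 5.375 and 5.943 molecules in knockout MZB against 6.365, 8.365 and 7.904 in wild-type MZB. The knockout mean of Kdm1a was 75% of wild type in MZB and 42.5% in FoB per cell, and 60% and 44.3% after rescaling. The fall in its mRNA was smaller in MZB by these means, but no test of that difference is given. The summed level of 13 marginal zone markers was 616.6 to 759.4 molecules per cell in wild-type MZB and 94.1 to 124.2 in wild-type FoB.

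All 43 genes were detected in all 10 libraries, and together they made up 0.324% to 0.344% of the mRNA in wild-type MZB and 0.406% to 0.412% in wild-type FoB. The knockout libraries gave 0.349% in both MZB samples and 0.378% to 0.403% in FoB. Summed, the genes came to 257.6 to 323.3 molecules per cell in wild-type MZB and 183.5 and 232.4 in wild-type FoB. The share was thus lower in every wild-type MZB library than in every wild-type FoB library, while the number of molecules was higher.

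The reads per unit of value followed exon length, with 89.7% of genes within 2-fold of the common ratio. Values were therefore taken to be scaled by length, and levels of different genes are set side by side only roughly. The order of genes with near values is not secured. At the top of the cascade the 2 MAP4K genes Map4k2 and Map4k1, the second of which encodes the lymphocyte kinase HPK1, were the most abundant of all 43. Map4k2 stood at 35.9, 41.2 and 44.6 molecules per cell in the 3 wild-type MZB libraries and at 29.5 and 25.5 in the 2 wild-type FoB libraries. Map4k1 stood at 30.7, 41.2 and 38.04 molecules per cell in MZB and 30.2 and 23.7 in FoB. Their ranges overlapped in both cell types, so neither ranked above the other beyond the spread. Map3k1, an activator of the JNK and ERK branches, followed with a mean of 16.9 molecules per cell over the 5 wild-type libraries, and the stress-responsive Map3k5 (ASK1) had 8.42.

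Of the MAP2K genes, the ERK activator Map2k1 (MEK1) was the most abundant, with 16.2, 20.2 and 19.9 molecules per cell in wild-type MZB and 13.0 and 9.61 in wild-type FoB. Its relative Map2k2 (MEK2) had 6.04, 7.82 and 7.32 in MZB and 5.86 and 4.53 in FoB. Map2k7, a JNK activator, had a mean of 7.72. Among the MAP kinases, Mapk3 (ERK1) had 2.69, 3.69 and 3.29 molecules per cell in MZB and 4.43 and 3.62 in FoB. Mapk14 (p38 alpha) had 10.3, 12.8 and 10.9 in MZB and 8.65 and 7.26 in FoB, above Mapk3 in all 5 wild-type libraries. Its mean was 9.97 molecules per cell, and the JNK genes Mapk9 (JNK2) and Mapk8 (JNK1) had means of 3.41 and 0.828.

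Among the phosphatase genes, Dusp11, whose product acts on RNA rather than on MAP kinases, was highest at a mean of 12.4 molecules per cell. Next came Dusp2, which encodes a nuclear phosphatase of activated lymphocytes, at 9.20. The lowest of the 43 by the mean of the 5 wild-type libraries were Mapk12, at 0.718, and Dusp3, at 0.669. The plot of wild-type levels shows each gene in both cell types.

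**Figure D1:**
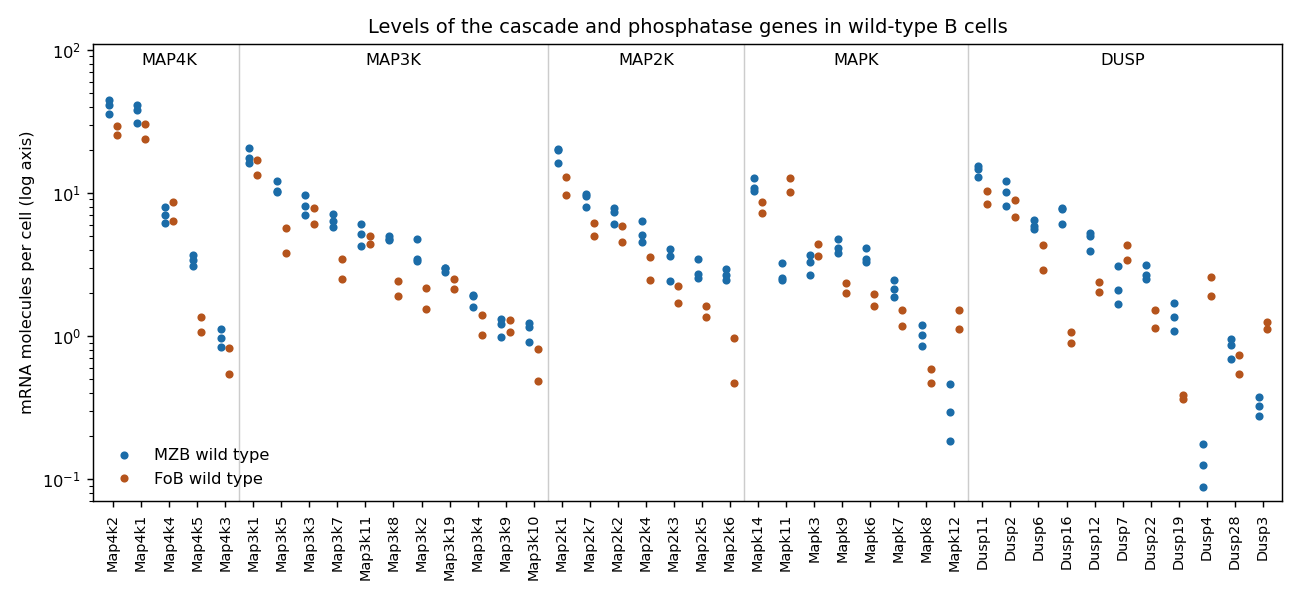
Molecules per cell, on a log axis, of 42 of the 43 genes in each wild-type library, ordered by tier and by mean level, with 1 point per library (3 MZB, 2 FoB). Map4k2 and Map4k1 are highest at 23.7 to 44.6 molecules per cell, Dusp16 is higher in MZB, and Mapk11, Mapk12, Dusp4 and Dusp3 are higher in FoB.

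The first comparison asked how wild-type MZB and FoB differ. Relative to other genes, MZB had far less mRNA for the p38 kinases Mapk11 and Mapk12 and for the phosphatases Dusp4, Dusp3 and Dusp7, and more for the phosphatases Dusp16 and Dusp19 and the p38 activator Map2k6. After rescaling, 5 of the 43 genes were higher in MZB and 20 lower, where 50.1% of all genes passed, 24.9% higher and 25.1% lower. The split depended on the fit: it was 9 higher and 18 lower after rescaling to equal library totals, 9 and 21 with library weights, and 8 and 19 with the compared groups alone. For these other fits the shares of all genes were not computed. The median log2 change of the 43 was -0.17, against 0.00 for all genes, with a range from -3.11 to 1.78. Per cell, 28 were higher and 5 lower, where 85.9% of all genes passed, 84.2% higher and 1.67% lower, and the median was 0.58 against 0.78. Without FoB wild-type library 2, 17 were higher and 5 lower per cell. The 5 genes higher after rescaling were also higher per cell, and the 5 genes lower per cell were also lower after rescaling. A further 6, namely Map2k2, Map3k4, Map4k1, Map4k2, Mapk14 and Dusp11, were higher per cell and lower after rescaling, so their direction depends on the scale. In bulk samples such as these, fewer cells with a transcript and less of it in each cell cannot be told apart.

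Mapk11, which encodes p38 beta, and Mapk12, which encodes p38 gamma, lie side by side on chromosome 15 and are transcribed from the same strand. Mapk11 spans chr15:89142482-89149606 and Mapk12 chr15:89130584-89141577 in GRCm38 (mm10), with 904 bases between the gene models. Their promoter windows are shown because both genes were lower in MZB, and that of Dusp16 because it had the largest difference in the other direction. Each window runs from 250 bases before to 50 bases after a RefSeq start (GRCm38.p6), on the minus strand in all 3 genes, and for Mapk12 and Dusp16 that start lies inside the annotated gene: chr15:89149557-89149856 for Mapk11, chr15:89140654-89140953 for Mapk12 and chr6:134792579-134792878 for Dusp16. Capitals mark matches on either strand to the GC box (GGGCGG) and, in Mapk12 near its first bases, to an E-box (CAGGTG).
Mapk11: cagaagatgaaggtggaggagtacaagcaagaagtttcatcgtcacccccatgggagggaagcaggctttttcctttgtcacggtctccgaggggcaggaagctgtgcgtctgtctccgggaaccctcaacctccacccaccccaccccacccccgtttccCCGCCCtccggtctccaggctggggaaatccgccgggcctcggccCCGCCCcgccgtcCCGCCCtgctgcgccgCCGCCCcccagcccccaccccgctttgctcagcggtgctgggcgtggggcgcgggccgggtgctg
Mapk12: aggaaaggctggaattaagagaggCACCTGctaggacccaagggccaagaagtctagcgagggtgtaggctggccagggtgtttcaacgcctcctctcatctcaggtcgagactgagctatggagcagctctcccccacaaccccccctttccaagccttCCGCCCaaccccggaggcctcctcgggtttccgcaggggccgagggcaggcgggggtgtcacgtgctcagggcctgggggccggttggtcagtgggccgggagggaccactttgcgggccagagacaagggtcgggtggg
Dusp16: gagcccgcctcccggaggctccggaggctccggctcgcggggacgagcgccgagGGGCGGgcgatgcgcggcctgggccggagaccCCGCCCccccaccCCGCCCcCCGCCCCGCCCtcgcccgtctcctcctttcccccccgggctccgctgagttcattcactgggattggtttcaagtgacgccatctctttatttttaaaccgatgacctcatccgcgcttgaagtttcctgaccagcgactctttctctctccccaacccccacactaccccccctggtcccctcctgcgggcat
The Mapk11 window held 4 GC boxes, 24 CpG and 69.7% GC. The Mapk12 window held 1 GC box, 1 E-box of the form CAGGTG, 14 CpG and 65.3% GC. Other forms of the E-box, such as the CACGTG in the Mapk12 window, were not searched and are neither marked nor counted. The Dusp16 window held 5 GC boxes, 28 CpG and 68.7% GC.

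RefSeq windows were at hand for 35 of the 43 genes, 44 windows in all. Their median GC content was 67.2%, against 60.7% over the 9815 windows of genes in the table and 52.7% over all 32851. The GC box matched 65.91% of their windows, 63.5% of table-gene windows and 35.66% of all windows. The E-box form CAGGTG was in 8 of the 44 windows, and in 16.96% of table-gene and 20.21% of all windows. The AP-1 motif (TGANTCA) was in 3 of the 44, those of Map2k6, Map2k7 and Map3k10, and in 4.56% of table-gene and 7.81% of all windows. The ETS motif (CCGGAAG) was in 2 of the 44, against 20.52% of table-gene and 8.86% of all windows. The GFI1 motif (AAATCNC) was in 4, against 9.4% and 11.7%, and the CRE motif (TGACGTCA) in 0, against 3.23% and 1.79%. Both strands were searched for each motif, and a match is a run of letters, not a site shown to be bound.

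Mapk11 had 2.45, 3.25 and 2.53 molecules per cell in wild-type MZB and 12.8 and 10.2 in wild-type FoB. The groups did not overlap, and the FoB mean was 4.21 times the MZB mean per cell and 7.76 times after rescaling. On the log2 scale MZB was lower by -2.79 ± 0.09 (SE) after rescaling (limma adjusted p = 2.55e-09) and by -1.96 ± 0.19 per cell (limma adjusted p = 3.28e-15). Mapk12 had 0.184, 0.465 and 0.295 molecules per cell in MZB and 1.53 and 1.12 in FoB. Its FoB mean was likewise 4.21 times the MZB mean, and after rescaling the log2 difference was -2.02 ± 0.15 (limma adjusted p = 9.28e-07). The MZB value of Mapk12 rested on a mean of 22.7 reads per library, against 152.7 for Mapk11.

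Mapk14 and Mapk3 gave values nearer to zero. Mapk14, the p38 kinase that most cells use, was 0.49 higher per cell in MZB (limma adjusted p = 0.0172) and -0.37 lower after rescaling (limma adjusted p = 0.00412). The per-cell call for Mapk14 was lost without MZB wild-type library 2 (0.40, limma adjusted p = 0.0702) or without FoB wild-type library 2 (0.37, limma adjusted p = 0.162). Mapk3 was lower in MZB after rescaling, at 2.38, 2.50 and 2.43 against 5.56 and 5.71, a log2 difference of -1.12 ± 0.09 (limma adjusted p = 2e-06). Per cell the Mapk3 groups overlapped, and the difference of -0.30 did not pass. The JNK genes Mapk8 and Mapk9 gave 0.67 and 0.87 per cell, both called, and 0.04 and 0.06 after rescaling, neither called.

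Dusp4 encodes a nuclear phosphatase (MKP-2) that acts on ERK and JNK. It had 0.0874, 0.176 and 0.125 molecules per cell in wild-type MZB and 2.58 and 1.91 in wild-type FoB. The FoB mean was 17.3 times the MZB mean per cell and 32.4 times after rescaling. The MZB libraries held 6, 9 and 6 reads of Dusp4, against 217 and 171 in FoB. The test on log2(value + 0.3) gave -3.11 ± 0.11 after rescaling (limma adjusted p = 6.9e-09), which understates the change of so low a gene, and voom on the recovered reads gave -4.95.

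Dusp3, which encodes VHR, a small phosphatase of ERK and JNK, was also lower in MZB, with 0.277, 0.373 and 0.325 molecules per cell against 1.25 and 1.12. The difference was -1.85 ± 0.11 after rescaling (limma adjusted p = 2.76e-07). Dusp7, an ERK phosphatase, had 1.68, 3.09 and 2.10 molecules per cell in MZB and 4.31 and 3.42 in FoB, with a difference of -1.52 ± 0.12 after rescaling (limma adjusted p = 2.13e-06). Neither gene's groups overlapped on either scale. Dusp6, the cytoplasmic ERK phosphatase MKP-3, did not go with them: its difference was 0.70 per cell (limma adjusted p = 0.000652) and -0.12 after rescaling (limma adjusted p = 0.305).

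Dusp16 (MKP-7), a phosphatase that prefers JNK and p38 and lies at chr6:134715468-134807063, was the gene of the 43 with the largest excess in MZB. It had 6.03, 7.77 and 7.85 molecules per cell in wild-type MZB and 1.07 and 0.889 in wild-type FoB. The MZB mean was 7.36 times the FoB mean per cell and 3.98 times after rescaling, with log2 differences of 2.55 ± 0.19 (limma adjusted p = 5.56e-22) and 1.78 ± 0.08 (limma adjusted p = 4.07e-08). Dusp19, whose product binds kinases of the JNK branch, was 3.71 times higher per cell, and its rescaled difference was 0.70 ± 0.15 (limma adjusted p = 0.00238). It was read at only 64.7 reads per library in MZB and 27 in FoB and overlaps the microRNA gene Mir684-1, which is in the table too.

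Of the upstream kinases, Map2k6 (MKK6), which activates p38, had 2.48, 2.94 and 2.65 molecules per cell in wild-type MZB and 0.963 and 0.467 in wild-type FoB. It was higher by 0.91 ± 0.16 after rescaling (limma adjusted p = 0.000714). Map4k5, a kinase upstream of JNK, had 3.10, 3.69 and 3.41 against 1.36 and 1.07 molecules per cell, and was higher by 0.53 ± 0.09 after rescaling (limma adjusted p = 0.000906). In both genes every MZB library was above every FoB library, also after rescaling. Map3k5 was higher by 0.33 ± 0.10 after rescaling (limma adjusted p = 0.0155), a call lost without MZB wild-type library 1 (0.26, limma adjusted p = 0.0579) or without FoB wild-type library 2 (0.22, limma adjusted p = 0.178). In the other direction, Map4k4 had rescaled levels of 5.42, 5.40 and 5.20 in MZB, and its FoB mean was 1.96 times theirs, a difference of -0.93 ± 0.06 (limma adjusted p = 7.36e-07). Map3k11 (MLK3) differed by -0.72 ± 0.10 after rescaling (limma adjusted p = 0.000179), though it overlaps Pcnx3. Per cell neither Map4k4, at -0.08, nor Map3k11, at 0.11, passed.

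By tier, the rescaled calls were 1 higher and 3 lower of 5 MAP4K genes, 1 and 6 of 11 MAP3K genes, 1 and 1 of 7 MAP2K genes, 0 and 4 of 9 MAPK genes, and 2 and 6 of 11 DUSP genes. Per cell all 7 MAP2K genes were higher, as were 84.2% of all genes. The plot of differences by tier places both scales on 1 line per gene.

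**Figure D2:**
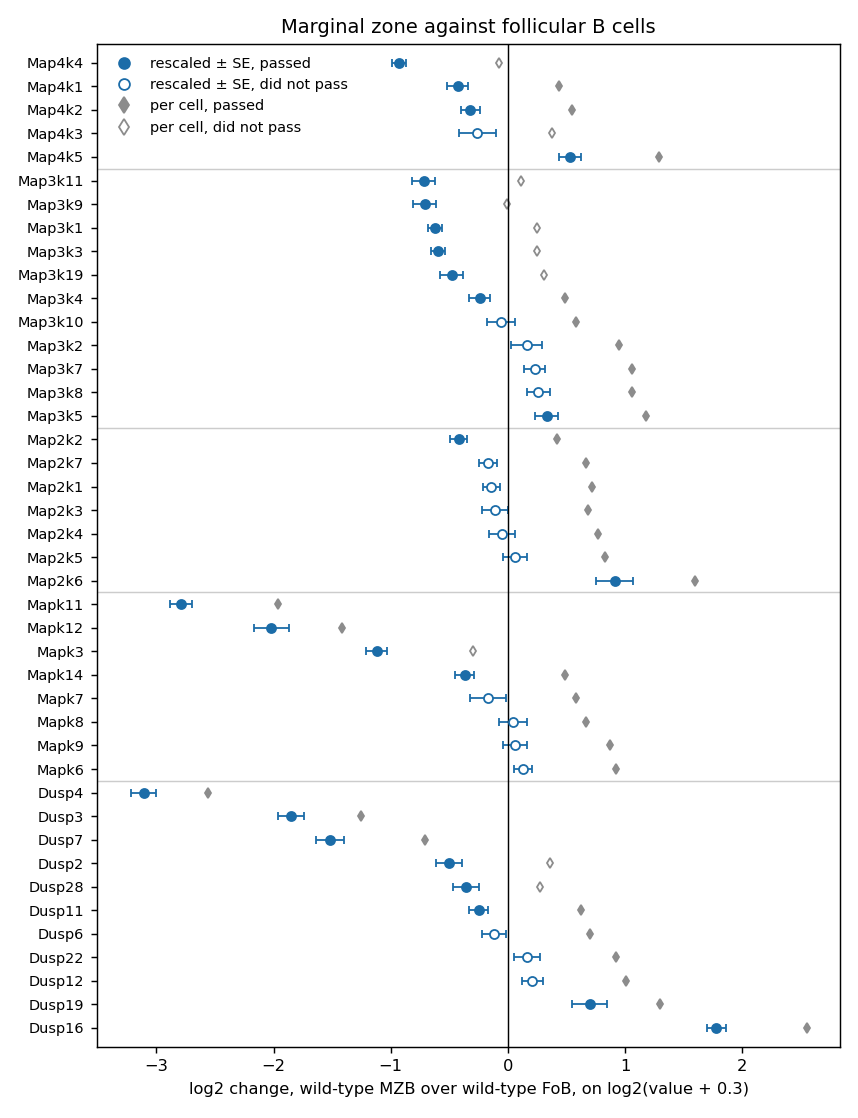
Log2 difference of wild-type MZB over wild-type FoB for 42 of the 43 genes, rescaled (circles, with SE) and per cell (diamonds), filled where limma's adjusted p passed. Dusp4 and Mapk11 lie farthest left at -3.11 and -2.79 rescaled, and Dusp16 farthest right at 1.78.

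The second comparison asked what loss of LSD1 changed in MZB. Without LSD1 the orphan kinase gene Map3k19 more than doubled per cell, and the phosphatase genes Dusp4 and Dusp6 and the p38 gene Mapk11 rose on both scales. After rescaling, 4 of the 43 genes were higher and 0 lower, where 5.26% of all genes passed, 3.36% higher and 1.9% lower, with a median of 0.04 against 0.02 for all genes. At an unadjusted p under 0.05, 15 of the 43 passed, and voom on recovered reads called 6, all higher. The shares of all genes at that p and by voom were not computed, so neither count is read as particular to these genes. Per cell, 11 were higher and 0 lower, where 14% of all genes passed, 13.3% higher and 0.702% lower, with a median of 0.34 against 0.32. The 11 were 2 MAP3K, 1 MAP2K, 3 MAPK and 5 DUSP genes, and 0 MAP4K genes. The per-cell count was 1 without MZB knockout library 2, 6 without MZB knockout library 1, 4 without MZB wild-type library 1 and 7 without MZB wild-type library 3. The rescaled count was 1 without MZB knockout library 2 and 2 without MZB wild-type library 3.

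Map3k19 encodes a little-studied MAP3K and lies at chr1:127813480-127855026. It had 6.78 and 6.74 molecules per cell in the 2 knockout MZB libraries and 2.82, 2.98 and 2.997 in the 3 wild-type ones. The knockout mean was 2.31 times the wild-type mean per cell and 1.83 times after rescaling. The log2 change was 1.13 ± 0.19 per cell (limma adjusted p = 3.1e-06) and 0.80 ± 0.10 after rescaling (limma adjusted p = 0.00199), and it passed under all 20 alternatives on each scale. The rescaled knockout levels of 4.39 and 3.82 were above the 3.12 and 3.34 of wild-type FoB.

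Dusp4 had 0.343 and 0.584 molecules per cell in knockout MZB and 0.0874, 0.176 and 0.125 in wild-type MZB. It rose by 0.54 ± 0.11 after rescaling (limma adjusted p = 0.0247), and the knockout mean was 3.58 times the wild-type mean per cell. That rested on 14 and 26 reads in the knockout libraries against 6 to 9. The knockout mean was still 8.86% of the wild-type FoB mean after rescaling. The rescaled call was lost without MZB knockout library 2 (0.38, limma adjusted p = 0.275), MZB wild-type library 1 (0.50, limma adjusted p = 0.0869) or MZB wild-type library 3 (0.52, limma adjusted p = 0.0609). Per cell the change was 0.82 (limma adjusted p = 0.00135), and 0.59 without MZB knockout library 2 (limma adjusted p = 0.267).

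Dusp6, at chr10:99263231-99267489, is a common readout of ERK activity. It had 9.44 and 11.8 molecules per cell in knockout MZB and 5.58, 6.43 and 5.88 in wild-type MZB. It rose by 0.79 ± 0.19 per cell (limma adjusted p = 0.00225) and by 0.47 ± 0.10 after rescaling (limma adjusted p = 0.0205). Every knockout library was above every wild-type one on both scales. The per-cell call was lost without MZB knockout library 2 (0.64, limma adjusted p = 0.23). The rescaled call was lost without MZB knockout library 1 (0.53, limma adjusted p = 0.0693), MZB knockout library 2 (0.41, limma adjusted p = 0.217), MZB wild-type library 2 (0.44, limma adjusted p = 0.0641) or MZB wild-type library 3 (0.44, limma adjusted p = 0.0614).

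Mapk11 had 4.29 and 5.59 molecules per cell in knockout MZB and 2.45, 3.25 and 2.53 in wild-type MZB. It rose by 0.78 ± 0.19 per cell (limma adjusted p = 0.00306) and by 0.46 ± 0.09 after rescaling (limma adjusted p = 0.0142), with no overlap between the groups. Without MZB knockout library 2 these were 0.60 (limma adjusted p = 0.291) and 0.37 (limma adjusted p = 0.182). The rescaled knockout mean was 18.4% of the wild-type FoB mean, against 12.9% for wild-type MZB.

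The other 7 genes passed per cell only. Dusp7 rose by 0.70 (limma adjusted p = 0.00959), with 3.498 and 4.16 molecules per cell against 1.68, 3.09 and 2.10, and was not called without MZB knockout library 2 (0.59, limma adjusted p = 0.289) or MZB wild-type library 1 (0.53, limma adjusted p = 0.116). Mapk3 rose by 0.63 (limma adjusted p = 0.018), with 4.84 and 5.41 against 2.69, 3.69 and 3.29. The Mapk3 call was lost without MZB knockout library 1 (0.71, limma adjusted p = 0.0508), MZB knockout library 2 (0.55, limma adjusted p = 0.354) or MZB wild-type library 1 (0.52, limma adjusted p = 0.113). Rescaled, Dusp7 gave 0.39 (limma adjusted p = 0.0878) and Mapk3 0.31 (limma adjusted p = 0.0659), so neither passed relative to other genes.

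Mapk12 rose by 0.58 per cell (limma adjusted p = 0.033), although one knockout value of 0.455 lay below the highest wild-type value of 0.465. Without MZB knockout library 2 it gave 0.32 (limma adjusted p = 0.613), without MZB wild-type library 1 0.42 (limma adjusted p = 0.22) and without MZB wild-type library 3 0.57 (limma adjusted p = 0.0602). Dusp3 rose by 0.54 per cell (limma adjusted p = 0.0371), with 0.651 and 0.571 molecules per cell against 0.277, 0.373 and 0.325. The Dusp3 call was lost without MZB knockout library 1 (0.48, limma adjusted p = 0.138), MZB knockout library 2 (0.61, limma adjusted p = 0.23), MZB wild-type library 1 (0.49, limma adjusted p = 0.13) or MZB wild-type library 3 (0.55, limma adjusted p = 0.0745). The remaining 3 were Dusp2 at 0.60 (limma adjusted p = 0.0322), Map3k3 at 0.57 (limma adjusted p = 0.0374), which overlaps Limd2, and Map2k2 at 0.53 (limma adjusted p = 0.0498). Without MZB knockout library 1, MZB knockout library 2 or MZB wild-type library 1, none of these 3 passed, with values of 0.70, 0.51 and 0.46 for Dusp2, 0.70, 0.45 and 0.46 for Map3k3, and 0.66, 0.41 and 0.43 for Map2k2. Map3k3 and Map2k2 also missed the threshold without MZB wild-type library 3 (limma adjusted p = 0.0933 and 0.0911) or FoB knockout library 1 (limma adjusted p = 0.0557 and 0.0708).

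Dusp16, the phosphatase gene with the largest MZB excess, gave 0.09 per cell (limma adjusted p = 0.70) and -0.22 after rescaling (limma adjusted p = 0.14), neither called. Its rescaled levels were 4.55 and 4.73 in knockout and 5.33, 5.28 and 5.79 in wild-type MZB, which did not overlap. Markers of other cell types moved in the same libraries. Of 9 follicular markers 8 were in the table, and their summed rescaled level was 151.9 to 158.8 in knockout MZB, 124.7 to 139.3 in wild-type MZB and 414.6 to 417.9 in wild-type FoB. Of those 8, 3 were higher and 1 lower in knockout MZB after rescaling. Of 13 marginal zone markers 5 were lower, with sums of 438.8 to 454.1 against 516.0 to 558.4. Of 9 macrophage and monocyte markers only Cd68, Itgam, Ly6c2 and Cd5l were in the table, 2 of the 4 were higher, and their rescaled sums were 5.79 to 6.74 against 2.99 to 4.27. Of 7 dendritic cell markers Flt3 and Cst3 were in the table, both higher, with rescaled sums of 12.7 to 15.0 against 9.11 to 9.47. All 6 pan-B-cell markers were in the table, with 2 of 8 T cell, 2 of 6 NK cell, 2 of 6 plasma cell and 2 of 5 germinal centre markers, and 0 of 6 neutrophil and 0 of 7 erythroid and platelet markers. Of these, 1 T cell and 1 germinal centre marker were higher and 1 B cell marker lower in knockout MZB after rescaling. The part of these shifts in the changes of the cascade genes was not tested.

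The same question in FoB gave little. Per cell 0 of the 43 genes passed, where 0.712% of all genes did, 0.413% higher and 0.299% lower, and 2 passed an unadjusted p under 0.05 by limma. Voom on recovered reads, which is relative like the rescaled values, called 1 higher and 1 lower. Again no share of all genes was computed by voom or at an unadjusted p. After rescaling 0 were higher and 1 lower, where 0.588% of all genes passed, 0.454% higher and 0.134% lower, and 8 had an unadjusted p under 0.05. The median log2 change was -0.02 after rescaling, against -0.01 for all genes. Of the MAP4K, MAP3K, MAP2K and DUSP genes, 0 passed by limma on either scale. In the same libraries 2 of the 4 macrophage and monocyte markers were higher after rescaling, with sums of 5.49 to 7.25 in knockout FoB against 2.38 to 3.30 in wild-type FoB, as was 1 of the 2 dendritic cell markers, with 16.5 to 20.3 against 15.85 to 15.86. The part of these shifts in the FoB results was not tested.

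The 1 gene called by limma on the rescaled values was Mapk11, in the direction opposite to MZB. It had rescaled levels of 11.7, 11.6 and 10.6 in knockout FoB and 16.1 and 16.1 in wild-type FoB, a log2 change of -0.50 ± 0.09 (limma adjusted p = 0.0283). All 3 knockout libraries were below both wild-type ones, and per cell they held 7.91, 8.86 and 6.61 molecules against 12.8 and 10.2. Per cell, -0.55 ± 0.19 missed the threshold (limma adjusted p = 0.369). The rescaled call was lost without FoB knockout library 1 (-0.53, limma adjusted p = 0.0581), FoB knockout library 3 (-0.46, limma adjusted p = 0.0813), FoB wild-type library 1 (-0.51, limma adjusted p = 0.201) or FoB wild-type library 2 (-0.50, limma adjusted p = 0.223).

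Map3k19 was next in FoB by size: its rescaled levels were 4.80, 4.77 and 4.30 in knockout and 3.12 and 3.34 in wild type, without overlap, and its change of 0.48 ± 0.10 missed the threshold (limma adjusted p = 0.0676). Dusp4, at 3.54, 3.17 and 3.14 against 3.23 and 3.02, changed by 0.06 ± 0.11 and its groups overlapped. Dusp6 gave 0.26 ± 0.10 (limma adjusted p = 0.27).

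**Figure D3:**
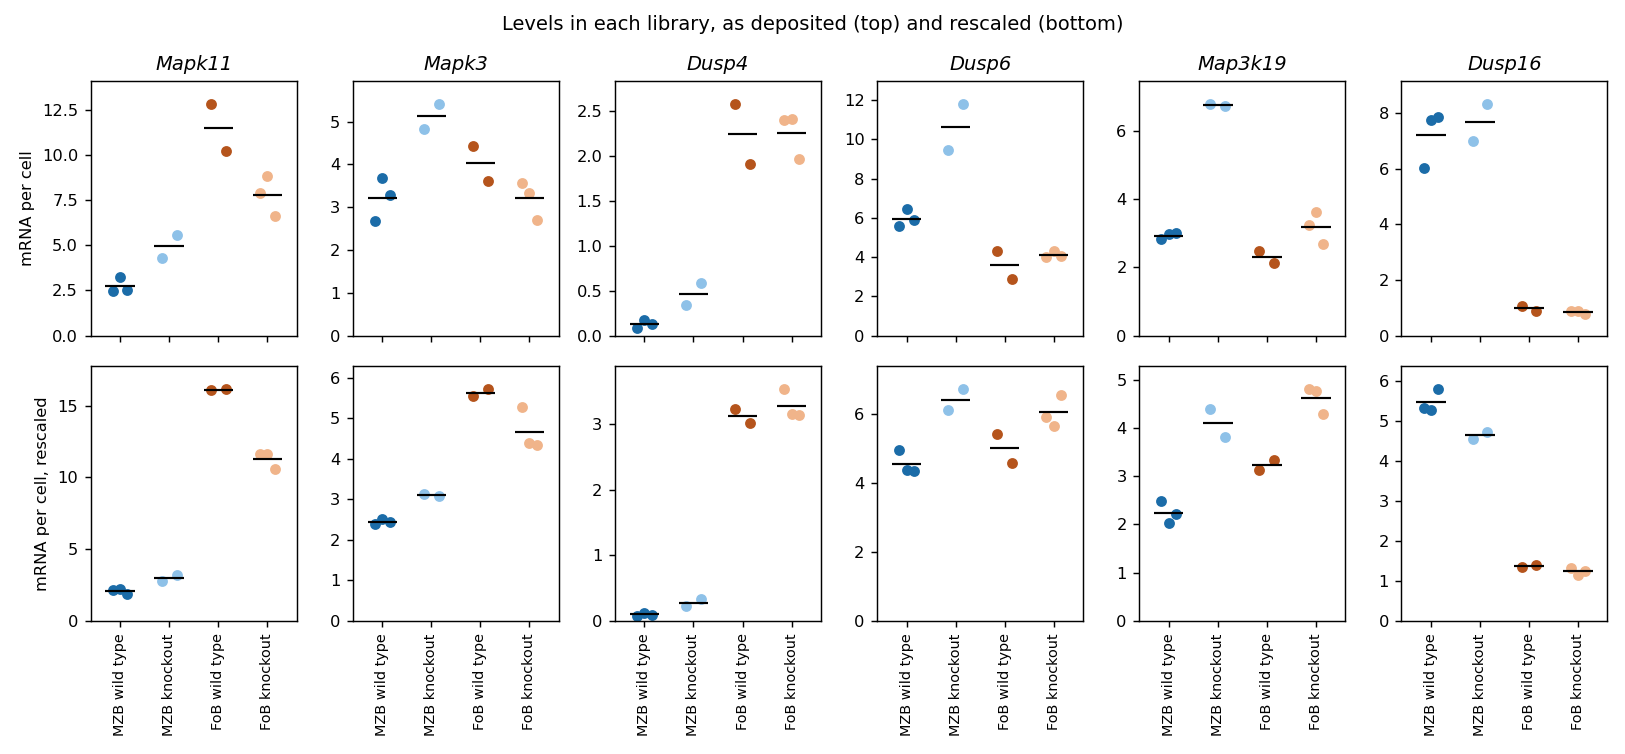
Level of 6 genes in each of the 10 libraries, as deposited (top, mRNA molecules per cell) and rescaled (bottom), with 1 point per library and a bar at the group mean. Mapk11 in FoB falls from 16.1 rescaled in both wild-type libraries to 10.6 to 11.7 in the knockouts, while the knockout MZB points of Mapk11, Dusp4, Dusp6 and Map3k19 lie above the wild-type ones.

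The last comparison tested whether the knockout effect itself differed between the cell types, as the MZB effect minus the FoB effect. Per cell 2 of the 43 genes passed, both with a higher value in MZB, where 2.34% of all genes passed, 2.02% in that direction and 0.32% in the other. After rescaling 1 passed, where 0.31% of all genes passed, 0.165% with a higher value in MZB. Mapk11 gave 1.33 ± 0.27 per cell (limma adjusted p = 0.00121) and 0.96 ± 0.12 after rescaling (limma adjusted p = 0.022), made of a change of 0.46 in MZB and -0.50 in FoB. In all 5 MZB libraries Mapk11 nevertheless stayed below all 5 FoB libraries. The rescaled call was lost without MZB knockout library 2 (0.88, limma adjusted p = 0.143), MZB wild-type library 1 (0.99, limma adjusted p = 0.0552), FoB wild-type library 1 (0.97, limma adjusted p = 0.0694) or FoB wild-type library 2 (0.96, limma adjusted p = 0.104). The per-cell call for Mapk11 passed without any 1 of the 10 libraries.

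The second gene was Mapk3, with 0.93 ± 0.27 per cell (limma adjusted p = 0.0382) and 0.58 ± 0.12 after rescaling (limma adjusted p = 0.0721). Its change was 0.63 in MZB and -0.30 in FoB per cell. The call was lost without MZB knockout library 2 (0.86, limma adjusted p = 0.277), MZB wild-type library 1 (0.82, limma adjusted p = 0.0993), MZB wild-type library 3 (0.95, limma adjusted p = 0.0585), FoB knockout library 3 (0.83, limma adjusted p = 0.122) or FoB wild-type library 1 (0.80, limma adjusted p = 0.314). The neighbour of Mapk11, Mapk12, gave 0.59 ± 0.21 after rescaling (limma adjusted p = 0.138). Map3k19 gave 0.32 ± 0.14 (limma adjusted p = 0.206), so its effect was not shown to differ between the cell types.

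**Figure D4:**
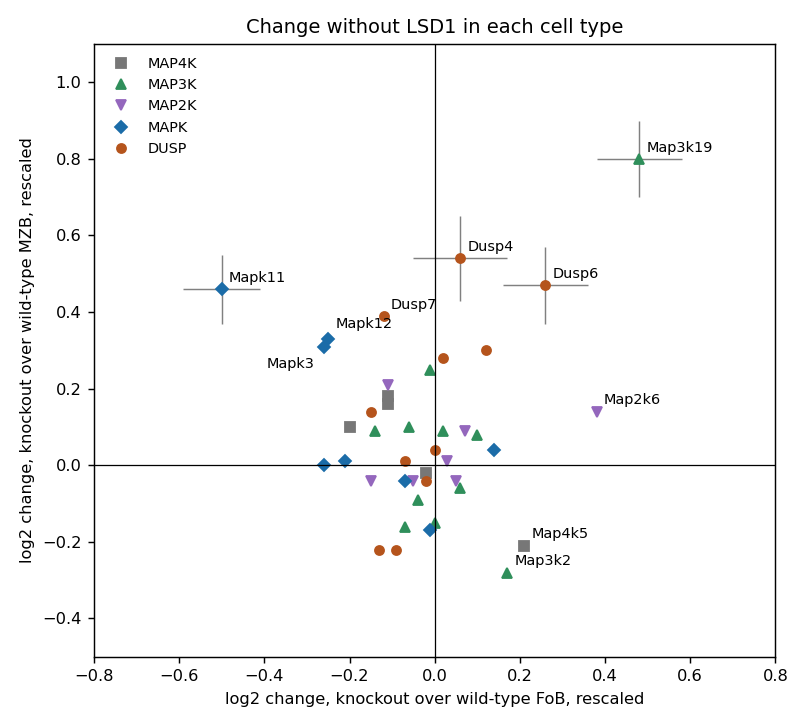
Log2 change without LSD1 after rescaling in FoB (horizontal axis) and MZB (vertical axis) for 42 of the 43 genes, by tier, with SE for the 4 genes called in MZB. Map3k19 lies at the upper right at 0.48 and 0.80 and Mapk11 at the upper left at -0.50 and 0.46.

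Both knockout comparisons and the wild-type comparison use the same wild-type libraries, so they are set side by side and not counted as agreement. Mapk11 differed by -2.79 between wild-type MZB and FoB and changed by 0.46 in knockout MZB. Dusp4 gave -3.11 and 0.54, Dusp7 -1.52 and 0.39, Mapk3 -1.12 and 0.31, and Map3k19 -0.48 and 0.80. Dusp16 gave 1.78 and -0.22. Wild-type MZB enters the 2 differences with opposite sign, which by itself favours opposite signs. The other genes called higher in wild-type MZB were mixed. Their rescaled mean ratios, MZB over FoB and then knockout over wild-type MZB, were 2.11 and 1.12 for Map2k6 and 1.27 and 1.06 for Map3k5. Dusp19 gave 2 and 1.02, and Map4k5 1.52 and 0.85. Genes lower in MZB were mixed too, and not every one is listed. By the same ratios Map3k9 gave 0.539 and 0.923 and Dusp11 0.839 and 0.974, while Map4k4 gave 0.511 and 1.14.

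The rest of the pathway was counted by list. Per cell in knockout MZB, where 13.3% of all genes were higher, 2 of 14 genes for Ras and its activators were higher, as were 3 of 7 Ras inactivators, 1 of 9 MAPK-activated kinases and 1 of 6 other MAPK inhibitors. None of 22 RAF kinases and scaffolds, 9 STE20-family kinases or 10 transcription factors that MAP kinases act on passed per cell in that limma test, although 9, 4 and 2 of them had an unadjusted p under 0.05 and voom called 2, 1 and 1. The last list held 16 genes, as it also named reported ERK-responsive genes. Its members Etv4, Etv5, Phlda1, Ccnd1, Epha2 and Epha4 were not in the table and so were not tested. Of all 77 genes in the 7 lists, 0 were lower, 31 had an unadjusted p under 0.05 and voom called 9. Counts at an unadjusted p and by voom have no share of all genes beside them. After rescaling 2 of the 77 genes passed, where 3.36% of all genes were higher. Rasgrp3, which loads Ras with GTP downstream of the B cell receptor, rose by 0.50 ± 0.09 (limma adjusted p = 0.0144), and Rasa4, which turns Ras off, rose by 0.82 ± 0.11 (limma adjusted p = 0.00286). Without MZB knockout library 2 neither passed, at 0.45 for Rasgrp3 (limma adjusted p = 0.166) and 0.75 for Rasa4 (limma adjusted p = 0.0565), and without MZB knockout library 1 Rasgrp3 did not (0.55, limma adjusted p = 0.0622). In FoB, 0 of the 77 passed by limma on either scale or by voom, with 1 per cell and 14 rescaled at an unadjusted p under 0.05. Between the wild types after rescaling, where 24.9% of all genes were higher in MZB and 25.1% lower, 2 Ras genes and activators were higher in MZB and 6 lower, Ras inactivators gave 0 and 4, RAF kinases and scaffolds 3 and 10, and STE20-family kinases 1 and 4. MAPK-activated kinases gave 2 higher and 4 lower, other MAPK inhibitors 0 and 1, and the transcription factors 2 and 3. Both Rasgrp3 and Rasa4 were lower in MZB, Rasgrp3 by -1.14 ± 0.09 (limma adjusted p = 2.94e-06) and Rasa4 by -1.25 ± 0.11 (limma adjusted p = 4.55e-06).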

How the data were processed

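The table analysed gives a signal per gene and library, mRNA molecules per cell, as the authors deposited it. Per the labels' protocols, polyA RNA of 50000 cells per sample was made into stranded libraries, and the submitters' processing notes name STAR and mm10. The conversion of reads to molecules was not given in these sources. Whole reads could be recovered from the values for 100% of genes (largest deviation 2.9e-05 reads, tolerance 0.1), and the reads per unit followed exon length (Spearman's rho 0.827 over 9537 genes). Identifiers of 9681 genes matched RefSeq symbols (GRCm38.p6) and 9 did not. The 43 genes, the pathway lists and the marker lists were chosen with earlier results of these data known.

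Values were tested as log2(value + 0.3) with limma 3.58.1 in R 4.3.3, with 4 group means over all 10 libraries, moderated variances with an intensity trend, two-sided p-values adjusted by Benjamini-Hochberg over 9690 genes, and a threshold of 0.05. The moderated variances had 6 residual degrees of freedom and a prior worth 86.9 per cell and 5 rescaled. Per-cell p-values therefore lean on a spread pooled over genes. Differences in library totals are shared by all genes, so very small per-cell p-values look firmer than so few libraries per group allow. A floor of 0.3 in at least 2 libraries removed 0 genes. Fold changes on this scale understate low genes. For the rescaled values each library was divided by a trimmed mean of log2 ratios to the mean library (trims 0.3 and 0.05), with factors of 0.62 to 1.76. Named were the genes called in each comparison, up to 8 in each direction by rescaled change, the 2 highest genes of each tier and the canonical ERK, JNK and p38 genes with their activators. Values of 1 gene are not reported here, though it is in the counts. Alternatives were other pseudocounts and filters, no trend, library weights, the compared groups alone, the replicate number as a block, each library left out, and limma voom on recovered reads. Shares of all genes were computed only for the main fits at the adjusted threshold, not for the alternatives. Voom used library sizes with trimmed-mean factors, so its results are relative like the rescaled ones, also where they stand beside per-cell results. Rescaling to equal library totals was added after seeing the data. The fits were tested on simulated data for the comparisons of 2 groups, but not for the difference of the knockout effects. The simulated libraries had equal totals, so the simulation does not bear on the spread of totals in the per-cell tests.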

Additional observations from a re-analysis of the deposited data

Results flagged for a closer look

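The effect of losing LSD1 on Mapk11 differed between the cell types when that difference was tested directly. It was 1.33 on the log2 scale per cell (limma adjusted p = 0.00121) and 0.96 after rescaling (limma adjusted p = 0.022), with all 3 FoB knockouts below both wild types and both MZB knockouts above all 3 wild types. The difference for Mapk3 was 0.93 per cell (limma adjusted p = 0.0382), and 0.58 after rescaling (limma adjusted p = 0.0721).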

How the results depend on the processing

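Of 45 calls on named genes, 27 passed under every alternative run, and most of these were wild-type differences of MZB and FoB. Among the knockout calls and the calls on the difference of the effects, only those of Map3k19 in MZB did so. The per-cell knockout calls of Dusp2, Map3k3 and Map2k2 in MZB were not among the 45. The wild-type comparison of MZB and FoB called 33 of the 43 genes per cell (22 to 35 with each library left out) and 25 rescaled (20 to 26). Between its scales 6 genes turned round. Rescaled values were -0.32 for Map4k2, -0.25 for Dusp11 and -0.24 for Map3k4, and rescaled and voom values were -0.42 and -0.44 for Map2k2, -0.43 and -0.44 for Map4k1, and -0.37 and -0.38 for Mapk14.

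In MZB the 11 genes called per cell became 6 with library weights, 4 rescaled and 6 with voom, and 1 to 14 with each library left out. The 4 rescaled calls became 8 with library weights and 1 to 6 with each library left out. In FoB the 0 per-cell calls became 1 rescaled and 2 with voom, and the 1 rescaled call became 0 with the compared groups alone, 2 with voom and 0 to 1 with each library left out. For the difference of the effects, the 2 per-cell calls became 1 with library weights, 1 rescaled, 4 with voom and 1 to 5 with each library left out. The 1 rescaled call became 2 with library weights, 4 with voom and 0 to 2 with each library left out. Rescaling to equal library totals moved none of these totals by over 1.5 times, but gave 9 higher and 18 lower in the wild-type comparison against 5 and 20. Voom called 1 higher and 1 lower in FoB, and 3 higher and 1 lower for the difference of the effects. The causes of these shifts were not tested.

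The replicate numbers were not taken to pair the libraries. Deviations of same-numbered libraries correlated at 0.187 and 0.149 in MZB and 0.061 and 0.006 in FoB, over only 2 shared numbers. For differently numbered libraries the values were -0.187 to 0.01 in MZB and -0.061 to 0.052 in FoB. In a group of 2 libraries the deviations mirror each other, so these correlations cannot show whether the libraries are paired. With the replicate number as a block, MZB calls were 4 per cell and 3 rescaled, FoB calls 0 and 0, and calls on the difference 0 and 0. In the wild-type comparison 31 and 24 genes were called. With 2 or 3 libraries per group, 1 library decides many calls. Low reads limit Dusp4, Mapk12, Dusp3 and Dusp19, whose mean reads per wild-type MZB library were 7, 22.7, 31 and 64.7.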
